A study of Homo sapiens with 12 samples.

Results

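The introns described here were those mostly retained in control cells with UPF1 knockdown. Retained intron events listed with the same coordinates in both deposited tables, read at least 10 times per library on average in each, were selected on their mean inclusion level in siNT/siUPF1 cells, which had to be 0.5 or more. The inclusion level is the length-corrected share of reads that keep the intron, on a scale of 0 to 1. The rule chose 1255 of 3847 introns read in both tables (32.6%), out of 5021 listed in both and 10576 listed in the siSFSWAP and siNT table. They carried 850 gene symbols and fell into 969 groups of overlapping introns, whose members share reads.

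RNA was sequenced from 293A-TOA cells, a line derived from human embryonic kidney cells, and the 12 libraries formed 4 groups of 3. siSFSWAP cells received 40 nM siRNA against SFSWAP, and siNT cells received a non-targeting siRNA. The siSFSWAP/siUPF1 and siNT/siUPF1 groups received 30 nM siRNA against UPF1 in addition. All groups were treated with 1 µM TG, an inhibitor of O-GlcNAcase, for 6 hours before harvest, so no group without TG was compared. The 3 libraries of a group were labelled as biological replicates, which the study defines as cells passaged at separate times, so p-values measure the spread between such cultures of a single line.

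The knockdowns were read from exon-skipping events. In RPM, reads scaled to the library's total over such events, SFSWAP was at 37.4, 59.2 and 44.7 in siSFSWAP libraries, against 127, 114 and 122 in siNT libraries, a decrease of 61.1%, and UPF1 reads were 76.8% lower in siSFSWAP/siUPF1 than in siSFSWAP cells. Each comparison of 3 libraries with 3 gave an exact two-sided permutation p of 0.1, the smallest that this design allows. For UPF1, the events listed and the totals differ between the groups compared, so the size of that decrease is uncertain. CDH2, a marker, listed 5 events in siSFSWAP and 7 in siSFSWAP/siUPF1 cells, at 23.8 to 29.2 and 46.1 to 47.0 RPM. Reads assigned to retained intron events totalled 1812794 to 3030493 per library. Of the kidney line's markers, KRT8, VIM, CDH2 and TFAP2A had reads, PAX2 was near 0, and KRT18 and NES listed no event, as did the leukocyte and hepatocyte markers. KRT8 was at 73.6, 60.3 and 53.5 RPM in siSFSWAP libraries, against 132.7, 95.0 and 106.7 in siNT libraries, and the part of this in the results was not tested.

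Introns are normally removed from a transcript by the spliceosome before export from the nucleus. A transcript that keeps an intron is often held in the nucleus, where the intron is called detained, and an exported transcript with a premature stop codon can be degraded by nonsense-mediated decay, for which UPF1 is an essential helicase. SFSWAP is an SR-related protein with SURP domains known as a regulator of alternative splicing, and the study asked how its loss changes intron removal.

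The sequences below are the introns of 6 of the largest falls in retention, and of XBP1, which rose. They are shown because they are short enough to read whole, and capitals mark the first 6 and last 3 bases, where the splice sites lie in the other introns. All were read 5′ to 3′ on the gene's strand from hg38.
TUBG2, chr17:42665563-42665677, plus strand: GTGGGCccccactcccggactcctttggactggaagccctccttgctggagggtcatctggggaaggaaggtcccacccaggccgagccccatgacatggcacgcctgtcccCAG
GBA2, chr9:35738153-35738231, minus strand: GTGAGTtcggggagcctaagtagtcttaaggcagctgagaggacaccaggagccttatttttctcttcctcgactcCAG
ACADVL, chr17:7224715-7224808, plus strand: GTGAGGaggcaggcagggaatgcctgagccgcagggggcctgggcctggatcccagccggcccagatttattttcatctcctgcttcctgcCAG
PIEZO1, chr16:88720284-88720384, minus strand: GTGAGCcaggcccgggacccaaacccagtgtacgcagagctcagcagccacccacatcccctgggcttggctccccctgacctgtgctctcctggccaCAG
PCNX3, chr11:65617510-65617610, plus strand: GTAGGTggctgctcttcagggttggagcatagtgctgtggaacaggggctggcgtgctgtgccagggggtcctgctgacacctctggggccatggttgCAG
ULK3, chr15:74842196-74842279, minus strand: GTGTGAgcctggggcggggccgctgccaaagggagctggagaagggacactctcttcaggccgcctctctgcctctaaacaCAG
XBP1, chr22:28796128-28796153, minus strand: GCAGCActcagactacgtgcaccTCT
The TUBG2, ACADVL, PIEZO1, PCNX3 and ULK3 introns had GC contents of 67.0%, 63.8%, 67.3%, 63.4% and 64.3%, while that of GBA2 was 51.9%. The XBP1 intron begins with GC and ends with CT, not with the GT and AG of most introns. As background, it is removed by the endonuclease IRE1 and the RtcB ligase, not by the spliceosome, during endoplasmic reticulum stress.

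The siNT/siUPF1 levels chose the introns and are given only as a description. Their median was 0.923, with 187 introns at 0.5 to 0.7, 357 at 0.7 to 0.9 and 711 at 0.9 or more, of which 193 were at exactly 1. Just inside the threshold lay introns of GALNT16, HDGF and CHMP4A, at 0.5, 0.5003 and 0.501. Just outside lay introns of FXYD5, FAM73B and MRPS21, at 0.499, 0.499 and 0.498. In the libraries that did not set the choice, 1176 of the introns had a mean level of at least 0.5 in siSFSWAP cells and 1212 in siNT cells.

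Most of these events were not introns of the principal transcript. MANE Select, the single reference transcript per gene in GENCODE 44, had 82 of the 1255 as an intron (6.53%), against 2313 of the 2592 other introns read in both tables (89.2%). Another 681 shared 1 splice site with a MANE intron, and 387 lay wholly inside a MANE exon, so that the retained form is the principal one. The remaining 32 used neither site of a MANE intron and 73 lay outside MANE transcripts. Reads on bases that are exonic in another transcript add to the inclusion count by construction.

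After SFSWAP knockdown, more of these introns were called lower than higher, and the share lower was near that over all retained introns. Of the 1255, 599 had enough reads of both forms to be tested, and the other 656 had under 10 skipping reads over the 6 siSFSWAP and siNT libraries. In a quasi-binomial test of inclusion against skipping reads with limma-moderated dispersion, 63 were lower and 15 were higher in siSFSWAP than in siNT cells at an adjusted p of at most 0.05, which is 10.5% and 2.5% of those tested. Over all 5845 retained introns tested, 9.1% were lower and 1.33% were higher. The libraries of the groups did not overlap in 132 lower and 42 higher introns of the 599, against 19.6% and 5.0% over all introns. The median difference in level was -0.0322, against -0.00617 over all introns tested, and the 3 siSFSWAP libraries gave medians of -0.0270, -0.0131 and -0.0493 against the siNT mean. Over all 1255, tested or not, the median was only -0.00856. The filter requires skipping reads in the libraries compared, so the larger fall holds only for introns with such reads. In bulk RNA, fewer cells that retain an intron and less retained RNA per cell cannot be told apart. The calls depend on the test: limma on log2 odds called 0 in either direction, with 126 lower and 34 higher at an unadjusted p under 0.05 (129 and 41 in the quasi-binomial test, where 18.6% and 4.02% of all introns were so), and a lowest adjusted p of 0.0717. Without the read filter, 1 was called lower and 0 higher, with 154 and 60 at an unadjusted p under 0.05.

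Among the classes, the MANE introns had the lowest median difference. Of the 71 tested, 30 were lower (42.3%) and 0 higher, with 0 higher also at an unadjusted p under 0.05 in the quasi-binomial test. Limma on log2 odds called 0 of the 71, with 40 lower at an unadjusted p under 0.05. Among MANE introns of the other introns read in both tables, 8.83% of 2164 were lower. The median difference was -0.216 for the 71, against -0.0047 for the 2164, and 64 of the 71 had a lower mean in siSFSWAP cells. Tested or not, the medians were -0.158 over all 82 and -0.00449 over the other 2313. The 2313 other MANE introns had a median siNT level of 0.0466, which leaves little level to lose, and on the log2 odds scale the median ratios were -1.52 for the 71 and -0.204 for the 2164. The split by MANE class was chosen after the values were seen and was not tested. Among the other MANE introns the median difference was -0.145 at siNT/siUPF1 levels of 0.25 to 0.5, where 31 of 140 were lower. Among members sharing 1 splice site, 11 of 259 were lower and 8 higher, against 7 and 8 of 167 among the other introns read in both tables. Inside MANE exons, 19 of 219 members were lower and 4 higher, against 8 and 3 of 45 among the others.

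**Figure D1:**
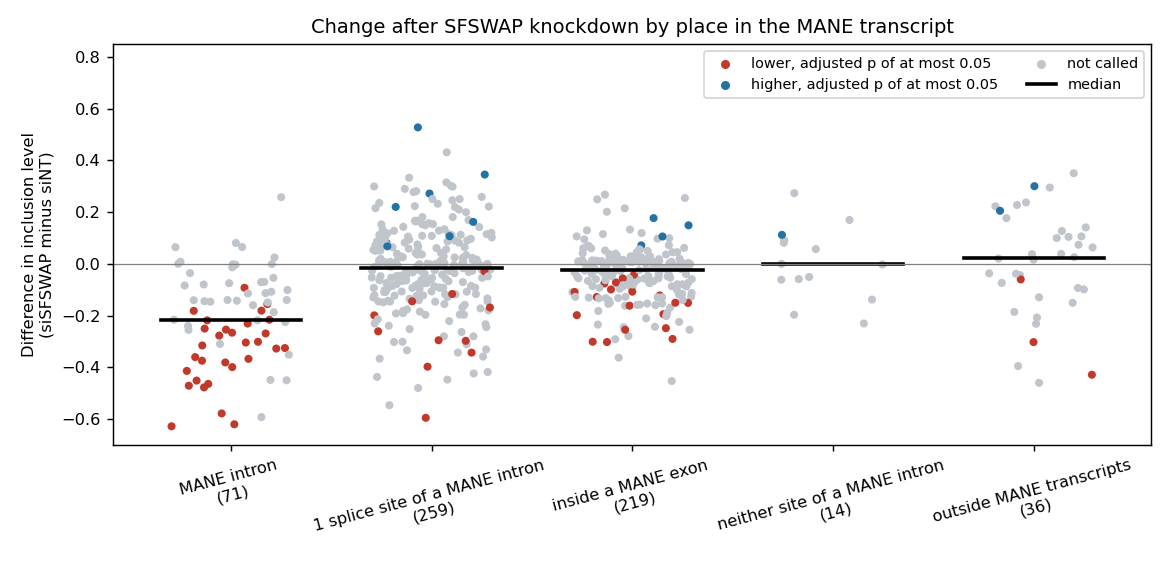
Difference in inclusion level, siSFSWAP minus siNT, for each of the 599 introns tested, by place in the MANE transcript (number tested in parentheses), with the median as a black line. The MANE introns have a median of -0.216, and the 30 called lower are all at negative values.

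TUBG2, a gamma-tubulin of the microtubule nucleation machinery, had the largest fall among introns read 50 times or more per library. Its MANE intron 7, in the coding region, was at 0.121, 0.238 and 0.302 in siSFSWAP libraries, against 0.816, 0.891 and 0.839 in siNT libraries. The groups did not overlap, and the log2 odds ratio was -4.41 ± 0.74 (SE, limma-moderated quasi-binomial test, adjusted p = 9.15e-06). In the UPF1 knockdown background the mean level was 0.28 in siSFSWAP/siUPF1 cells and 0.807 in siNT/siUPF1 cells.

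Introns of GBA2 and ACADVL followed, among called introns with such reads and groups that did not overlap. GBA2, the non-lysosomal glucosylceramidase, had its intron 14 at 0.087, 0.298 and 0.19 in siSFSWAP libraries, against 0.532, 0.556 and 0.921 in siNT libraries (limma-moderated adjusted p = 0.000271). ACADVL, the very long-chain acyl-CoA dehydrogenase of mitochondrial fatty acid oxidation, had its intron 18 at 0.111, 0.204 and 0.137 in siSFSWAP libraries, against 0.463, 0.601 and 0.782 in siNT libraries. The adjusted p of the limma-moderated test was 0.000185, and the groups did not overlap for either intron. ACADVL intron 17 averaged 0.596 ± 0.159 in siSFSWAP and 0.922 ± 0.0824 in siNT cells (SD, n = 3 each, adjusted p = 0.00751 by the limma-moderated test). Intron 1 averaged 0.398 in siSFSWAP and 0.638 in siNT cells, on a mean of 28 reads per library, and did not pass (limma-moderated adjusted p = 0.199).

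**Figure D2:**
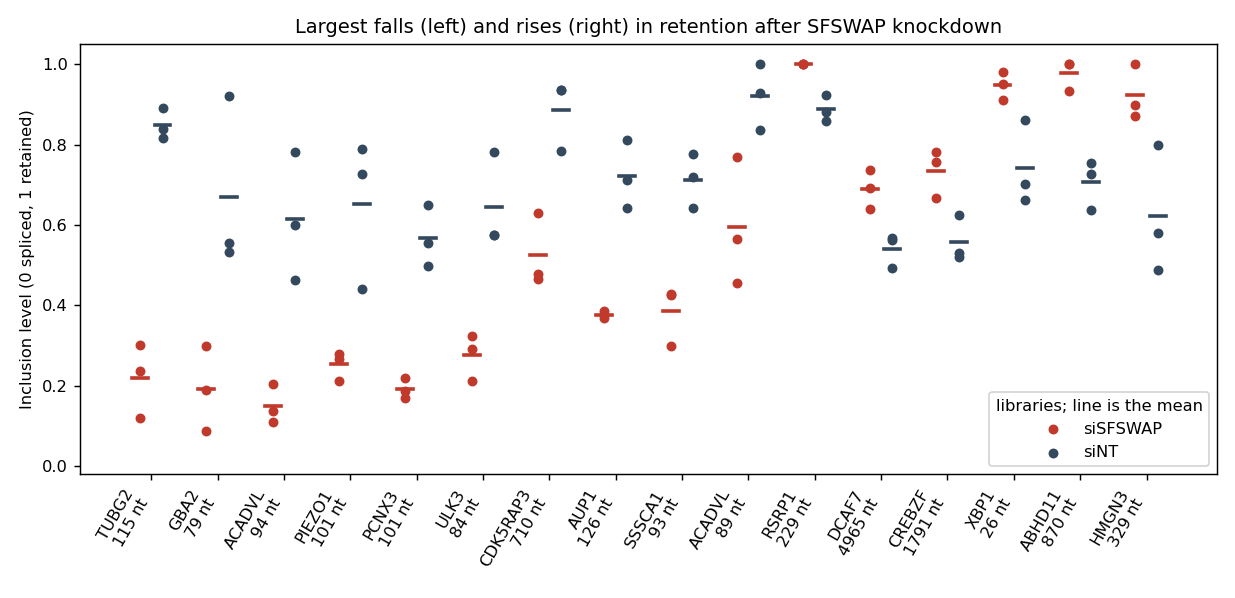
Inclusion level in each library (points; lines are means of 3) of the introns with the largest called falls and rises, read 50 times or more per library and without overlap of the groups. The TUBG2 intron lies at 0.121 to 0.302 in siSFSWAP and 0.816 to 0.891 in siNT libraries.

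The mechanosensitive channel PIEZO1 had its intron 41 at 0.28, 0.213 and 0.266 in siSFSWAP libraries, against 0.79, 0.442 and 0.727 in siNT libraries. PCNX3, a pecanex family membrane protein, had its intron 4 at 0.193 ± 0.0259 in siSFSWAP and 0.567 ± 0.0763 in siNT cells (SD, n = 3 each). ULK3, a kinase of the autophagy-related ULK family, had its intron 2 at 0.276 ± 0.0573 in siSFSWAP and 0.644 ± 0.119 in siNT cells. Adjusted p-values of the limma-moderated test were 0.000691, 0.000795 and 0.00136, and none of these groups overlapped. CDK5RAP3, AUP1 and SSSCA1 completed the 10 largest falls, with differences of -0.361, -0.343 and -0.328.

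Lower calls were more frequent at high GC content. Of introns with a GC content of 60% or more, 36 of 174 were lower and 1 was higher, and of those under 40%, 4 of 146 were lower and 8 higher. MANE introns made up 20 of these 36 lower calls, on 42 tested, and 2 of these 4, on 2 tested. Of the other introns read in both tables, 134 of 911 with 60% or more and 8 of 562 under 40% were lower. The 63 lower introns had a median GC content of 60.9% and a median length of 124 nt, against 52.2% and 211 nt in those tested and not called. The parts of length, of GC content and of MANE class were not tested separately.

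**Figure D3:**
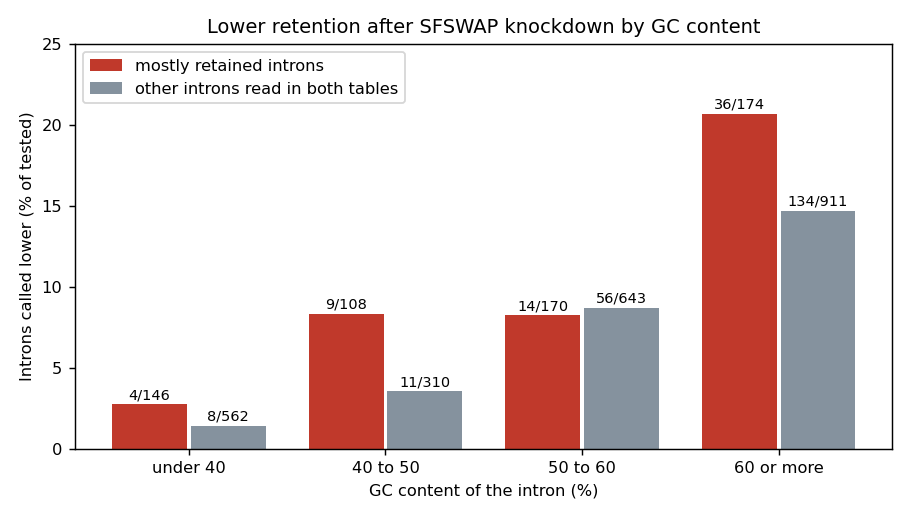
Percent of tested introns called lower after SFSWAP knockdown, by GC content of the intron, for the mostly retained introns and for the other introns read in both tables, with counts over the bars. In the bin of 60% or more, 36 of 174 mostly retained introns were lower, and 20 of these 36 were MANE introns.

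Among RNA-binding proteins, 3 of 32 tested introns of SR proteins and other splicing regulators were lower and 2 higher. Of hnRNP genes, 1 of 7 was lower and 2 higher, and both higher calls were in HNRNPA1, where the libraries of the groups overlapped. Of core spliceosome and snRNP genes, 2 of 11 were lower and 0 higher. Over all introns of these lists, 18 of 143, 6 of 52 and 9 of 96 were lower, and 4, 4 and 0 were higher. HNRNPM, a splicing regulator, carries an intron inside its MANE exon 6, with 0.547, 0.557 and 0.513 in siSFSWAP libraries, against 0.676, 0.627 and 0.611 in siNT libraries (limma-moderated adjusted p = 1.51e-05). SRRM2, a scaffold of nuclear speckles, had a level of 0.698 ± 0.0566 in siSFSWAP and 0.898 ± 0.0628 in siNT cells (SD, n = 3 each). WTAP, a regulatory subunit of the m6A methyltransferase complex, had an intron at 0.698 ± 0.0381 in siSFSWAP and 0.867 ± 0.0102 in siNT cells. Both passed, with limma-moderated adjusted p-values of 0.0122 and 0.000424. In the core spliceosome list the lower introns were those of SF1, the branch point binding protein, and SNRPB, an Sm protein. The SF1 intron was at 0.9, 0.894 and 0.909 in siSFSWAP libraries, against 0.981, 0.961 and 0.976 in siNT libraries, and that of SNRPB was at 0.815, 0.824 and 0.751 in siSFSWAP libraries, against 0.949, 0.886 and 0.905 in siNT libraries. Both fell without overlap, with limma-moderated adjusted p-values of 0.00233 and 0.0363.

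In the list headed splicing kinases, the 1 tested intron was that of CDK10, which was lower, against 2 of 8 over all introns of that list. This count therefore describes CDK10 alone. The counts were 1 of 6 for chromatin and DNA modifying enzymes, against 13 of 142 over all introns of the list, and 1 of 4 for tRNA synthetases and tRNA modification, against 8 of 80. CDK10, a cyclin-dependent kinase, had its MANE intron 10 at 0.431, 0.495 and 0.318 in siSFSWAP libraries, against 0.733, 0.59 and 0.752 in siNT libraries (limma-moderated adjusted p = 0.0363). KDM2B, a histone demethylase, had an intron in its MANE exon 23 at 0.693, 0.734 and 0.81 in siSFSWAP libraries, against 0.977, 0.89 and 0.965 in siNT libraries (limma-moderated adjusted p = 0.0175). QTRT1, the catalytic subunit of the enzyme that places queuosine in tRNA, had its MANE intron 6 at 0.376, 0.389 and 0.513 in siSFSWAP libraries, against 0.554, 0.65 and 0.723 in siNT libraries (limma-moderated adjusted p = 0.00357). All 3 fell without overlap of the groups. NDOR1, a diflavin reductase of cytosolic iron-sulfur protein assembly, had its MANE intron 5 at 0.202, 0.078 and 0.0406 in siSFSWAP libraries, against 0.593, 0.59 and 1 in siNT libraries, on a mean of only 21.8 reads per library (limma-moderated adjusted p = 0.00258).

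Of lysosome, autophagy and sphingolipid genes, 3 of 5 tested introns were lower (GBA2, TSC2 and ULK3), against 14 of 78 over all introns of the list. Of mitochondrial metabolism, 2 of 14 were lower (both ACADVL), against 22 of 82. Of long noncoding RNAs and snoRNA hosts, 2 of 12 were lower, against 4 of 58. Of cytosolic ribosomal proteins, 2 of 27 were lower and another 2 higher, against 22 and 11 of 153. By the same limma-moderated test, DNA repair had 0 of 12, zinc finger genes had 0 of 11 and mitochondrial ribosomal proteins had 0 of 3 called, while over all introns of these lists 13 of 94, 6 of 72 and 2 of 27 were lower. ERCC2, a helicase of nucleotide excision repair, had its MANE intron 1 at 0.656, 0.568 and 0.425 in siSFSWAP libraries, against 1 in every siNT library, and did not pass (limma-moderated adjusted p = 0.0716, mean of 24 reads). GAS5, a noncoding RNA that hosts snoRNAs, had an intron at 0.562, 0.563 and 0.597 in siSFSWAP libraries, against 0.899, 0.844 and 0.887 in siNT libraries (limma-moderated adjusted p = 5.95e-07). Ribosomal protein and HNRNPA1 genes have near-identical processed copies, so read assignment to them is uncertain.

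Retention rose in 15 introns. XBP1, the transcription factor of the unfolded protein response, had its 26 nt intron at 0.911, 0.951 and 0.98 in siSFSWAP libraries, against 0.663, 0.862 and 0.702 in siNT libraries. Skipping reads, which mark the spliced form, were 9, 4 and 3 in siSFSWAP libraries and 48, 20 and 49 in siNT libraries, and the limma-moderated adjusted p was 0.00124. CREBZF, a bZIP regulator, had a 1791 nt intron in its 3′ UTR at 0.735 ± 0.0599 in siSFSWAP and 0.559 ± 0.0571 in siNT cells (SD, n = 3 each). DCAF7, a WD40 adaptor protein, had a 4965 nt intron in its 3′ UTR at 0.69 ± 0.0488 in siSFSWAP and 0.541 ± 0.0415 in siNT cells. HMGN3 and ABHD11 rose by 0.3 and 0.272 in level, with limma-moderated adjusted p-values of 0.0224 and 0.048. With 1 intron kept per group of overlapping introns, 7 were higher. Leaving out siNT library 1, siNT library 3 or siSFSWAP library 1 left 9 higher, and leaving out siSFSWAP library 2 left 5.

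In RSRP1, CREBZF and PTMS, calls in opposite directions fell within 1 group of overlapping introns, whose reads are shared. RSRP1, an arginine- and serine-rich protein gene, held 10 of the introns in 2 groups of overlapping introns. Its 229 nt intron, which lies inside its MANE intron 3, was at 1 in every siSFSWAP library, against 0.858, 0.924 and 0.882 in siNT libraries (limma-moderated adjusted p = 0.0417). Its MANE intron 3 was at 0.348, 0.47 and 0.288 in siSFSWAP libraries, against 0.461, 0.606 and 0.585 in siNT libraries (limma-moderated adjusted p = 0.0177), with overlap between the groups. The 5 CREBZF introns, all in 1 group of overlapping introns, included 1 lower and 1 higher. So did the 3 PTMS introns, and for both PTMS calls the siSFSWAP and siNT libraries overlapped. In all, 600 genes had 1 such intron and 83 had 3 or more.

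The intron with the most reads was that of RPL13, a large subunit ribosomal protein. It lay in MANE exon 4, at 0.857, 0.838 and 0.847 in siSFSWAP libraries, against 0.869, 0.844 and 0.873 in siNT libraries, and did not pass (limma-moderated adjusted p = 0.104).

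Some calls rest on single libraries. In the HNRNPA1 intron of 137 nt, all 3 siSFSWAP libraries and 2 siNT libraries had 0 skipping reads and the other siNT library had 136. In PTMS, a small acidic nuclear protein, the 172 nt intron had 0 skipping reads in every siSFSWAP library, against 215, 29 and 0 in siNT libraries. Both were called higher although their groups overlapped, and they were among 4 of the 15 higher and 5 of the 63 lower calls with such overlap. Across the 1255 introns, 15 had a library with 0 skipping reads beside another of the same group with at least 20, and the cause was not tested.

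Few of these introns were called after UPF1 knockdown in cells with SFSWAP knockdown, and few were called over all introns tested. Of 577 tested between siSFSWAP/siUPF1 and siSFSWAP cells, 0 were higher and 2 were lower (limma-moderated quasi-binomial test), against 0.0332% higher and 0.133% lower over 3015 introns, and 0 were called by limma on log2 odds. At an unadjusted p under 0.05, 18 were higher and 13 lower, against 3.02% and 1.92% of all introns. The groups did not overlap in 28 higher and 12 lower introns, against 5.24% and 3.95% of all introns. The 2 were the introns of HNRNPA1 and PTMS with 0 skipping reads in all 3 siSFSWAP libraries. With 1 intron kept per group of overlapping introns, 0 were lower. Of the MANE introns, 0 of 68 passed the limma-moderated test in either direction. At an unadjusted p under 0.05, 6 of the 68 were higher and 0 lower, against 3.05% and 1.64% of all 2200 MANE introns tested. The GBA2 intron printed above had the lowest p among those higher, with a mean of 0.371 in siSFSWAP/siUPF1 and 0.192 in siSFSWAP cells (limma-moderated adjusted p = 0.639).

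Values in the UPF1 knockdown background are a description only, with no test. The introns were chosen for high siNT/siUPF1 levels, which by itself lowers the difference of siSFSWAP/siUPF1 minus siNT/siUPF1, so these values are not support for the falls above. Of the 63 lower introns, 61 had a lower mean in siSFSWAP/siUPF1 than in siNT/siUPF1 cells, and of the 15 higher, 12 had a higher mean. The 71 tested MANE introns had medians of 0.476 in siSFSWAP, 0.713 in siNT, 0.516 in siSFSWAP/siUPF1 and 0.684 in siNT/siUPF1 cells.

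**Figure D4:**
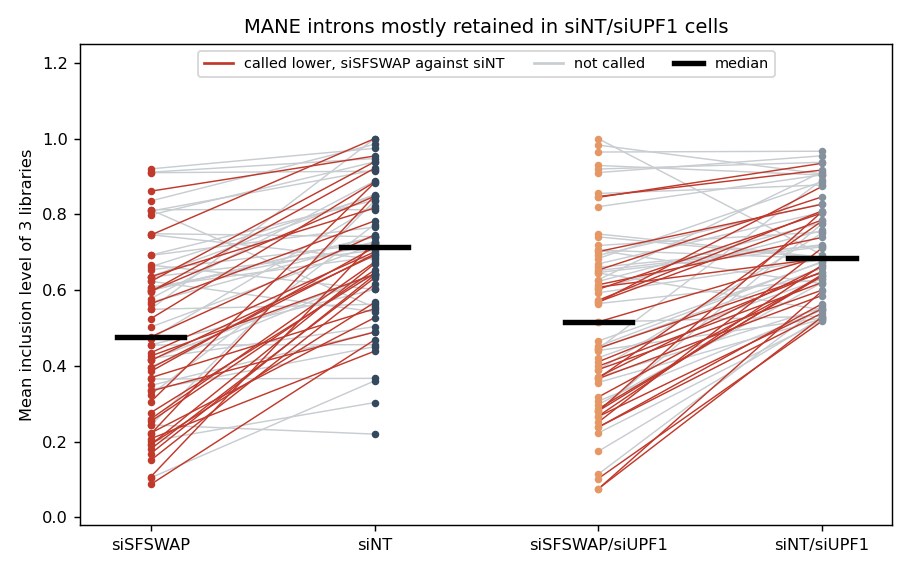
Mean inclusion level of 3 libraries for each of the 71 tested MANE introns in the 4 groups; lines join an intron's values within a UPF1 background, in red where it was called lower, and black bars are medians. The siNT/siUPF1 column starts at 0.5 because its level chose the introns.

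Beyond the rule, the introns differed from the others read in both tables in sequence, as medians without a test. Their length was 195 nt, against 128 nt in the others, and their GC content was 51.7%, against 55.7%. Scores of the 5′ splice site against a matrix of MANE introns were 6.41 bits, against 8.12 bits, and of the 3′ splice site 7.31 bits, against 8.69 bits. MANE introns made up 6.53% of the introns and 89.2% of the others. Within MANE introns the GC order was reversed, with medians of 61.3% in the 82 mostly retained and 56.5% in the 2313 others. Length kept its order there, at 159 nt against 123 nt. So did the scores, at 7.17 bits against 8.20 bits (5′) and 7.30 bits against 8.69 bits (3′). GT-AG ended 1174 of the 1255, GC-AG ended 56 and AT-AC ended 3. A snoRNA lay inside 15 and a listed skipped exon inside 103. Of 67 MANE introns within the coding region, 50 held a stop codon in the reading frame entering from the exon upstream and 17 held none.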

How the data were processed

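PolyA RNA of 12 libraries was sequenced. Per the labels and the study's methods, the authors trimmed reads with cutadapt (1.9.1), aligned them with STAR (2.7) to GRCh38.p8 and tabulated splicing events with rMATS. The deposited tables hold, per event, comma-joined counts of inclusion and skipping reads of 3 libraries per group, on junctions and on intron bases. The deposited counts have no replicate number. Which column set is siNT rests on the study's definition of its difference, and SFSWAP reads fitted it. Columns of the authors' own p-values, false discovery rates and level differences were not used.

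Inclusion and skipping reads were compared by a quasi-binomial model per intron, with dispersion moderated by limma (3.58.1, R 4.3.3) and not under 1, F tests, and Benjamini-Hochberg adjustment over all retained introns that averaged 10 or more reads per library and had 10 or more inclusion and skipping reads in all. Calls had an adjusted p of at most 0.05. The test was also run on reads simulated with its own fitted dispersions, which cannot show that the model suits these data. The comparison of siSFSWAP/siUPF1 with siSFSWAP cells joins separate tables by coordinates, and uses ratios within a library. Differences are siSFSWAP minus siNT levels. Splice sites and classes came from hg38 and GENCODE 44. Depth limits introns with few skipping reads, and intervals are not given for single libraries.

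The introns, gene lists and named genes were chosen with earlier results of these data known. Named introns were those with the largest called changes (at least 50 reads, groups apart), the most reads, the highest levels, levels next to the threshold, the lowest p in each list and for UPF1, genes with 3 or more introns, and genes the study or an earlier description names. Alternatives were other read filters, limma on log2 odds with pseudocounts of 0.5 and 1, no dispersion floor, 1 event per intron, a difference of at least 0.2, other thresholds of the rule, and leaving out each library.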

Additional observations from a re-analysis of the deposited data

How the results depend on the processing

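The counts of calls depended on the test and the read filter. Limma on log2 odds, with a pseudocount of 0.5 or 1, called 0 introns lower and 0 higher after SFSWAP knockdown, 0 MANE introns lower, 0 of the 37 called among the named introns, and 0 lower after UPF1 knockdown. At an unadjusted p under 0.05 limma gave 126 lower with either pseudocount, 34 and 37 higher, 40 and 44 MANE introns lower, and 11 and 13 lower after UPF1 knockdown. With no read filter, 1 was lower, 0 higher, 0 MANE introns lower, 1 named intron called and 0 lower after UPF1 knockdown, and the median difference was -0.00856. Requiring a difference of at least 0.2 left 39 lower, 6 higher and 1 lower after UPF1 knockdown, and 30 reads per library left 1 lower after UPF1 knockdown. Keeping 1 intron per group of overlapping introns, chosen after seeing the data, left 7 higher and 0 lower after UPF1 knockdown and gave a median difference of -0.0566. Leaving out 1 library at a time gave 42 to 75 lower, 5 to 19 higher, 21 to 33 MANE introns lower, 26 to 38 named introns called, 0 to 2 higher and 1 to 3 lower after UPF1 knockdown, and median differences of -0.0451 to -0.0234. The median difference kept its sign under the alternatives run, and no named intron called in the main or the alternative fit changed direction. Sign changes of introns called in neither fit were not counted. The cause of these shifts was not tested. A planned negative binomial test of the same counts was not run. No paired analysis was possible because the joined values carry no replicate number. Depth limits the 656 introns that were not tested.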

Other observations

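Introns whose skipping reads were present or absent as a whole were more frequent among the mostly retained introns. Of the 1255, 15 had 0 skipping reads in 1 library and at least 20 in another of the same group (1.20%), against 8 of the 2592 others (0.309%), and 10 of the 15 shared 1 splice site with a MANE intron. In PTMS, the 172 nt intron had 0, 0 and 603 skipping reads in siSFSWAP/siUPF1 libraries, against 538, 342 and 647 in siNT/siUPF1 libraries. In HNRNPA1, the 137 nt intron had 151, 0 and 183 skipping reads in siSFSWAP/siUPF1 libraries, against 0 in every siNT/siUPF1 library. The cause was not tested.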
